A study of Mus musculus with 6 samples.

Results

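The genes described here encode the machinery of mitosis: the spindle, the kinetochore, the condensin complexes that compact chromosomes and the proteins that divide the cell. They were taken from the gene symbols of the count table, where all 53 listed genes were found among 24421 genes, and all 53 passed the filter on low counts and were among the 13479 genes tested. RNA was sequenced from primary cell cultures of the stria vascularis, the tissue of the cochlear lateral wall that secretes endolymph. The cells had been sorted and grown as endothelial cells from mice on postnatal days 10 to 12, without treatment. The mice were either *Nhe6*-knockout (KO, 3 cultures, 1 library each) or wildtype (WT, 3 cultures, 1 library each). The knockout is a targeted gene disruption. The labels give C57BL/6N as the background of both groups, whereas the methods of the study name the C57bl6/j substrain. Cells of several mice of 1 genotype were pooled for each culture, so the spread between libraries is a spread between pooled cultures and not between single mice.

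Most of these genes are transcribed mainly in dividing cells, late in the cell cycle. Kinetochores are built on centromeres and grip the ends of spindle microtubules. The spindle assembly checkpoint holds the anaphase-promoting complex back until each kinetochore is attached, after which separase cuts cohesin, kinesin motors and midzone proteins pull the spindle apart, and an actin ring divides the cell. Most capillary endothelial cells of adult tissue rest outside the cell cycle, whereas endothelial cells in culture are grown to proliferate. In such bulk libraries, a larger share of dividing cells and more of a transcript per dividing cell cannot be told apart.

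Late cell cycle promoters are known for a short element near the transcription start, the cell cycle homology region (CHR), which is bound by the DREAM and B-MYB complexes, often with CCAAT boxes upstream that bind NF-Y. The letters TTTGAA and TTCGAA were searched as the CHR and CCAAT as the box, on both strands, with overlap allowed, in RefSeq windows of 300 bases on GRCm38.p6, with 250 bases before the start and 50 after it. Windows were matched for 48 of the 53 genes, and *Aurkb*, *Incenp*, *Spc24*, *Kif20a* and *Smc4* had none. The following 100 bases before the start, written 5′ to 3′ on the strand of the gene, show the arrangement in 5 of the genes, with CHR and CCAAT matches of either strand in capitals. They are the promoters of *Cdc20*, the activator of the anaphase-promoting complex, at chr4:118437344-118437443 (minus strand), of separase (*Espl1*) at chr15:102296193-102296292 (plus strand), of the spindle motor *Kif11* at chr19:37376282-37376381 (plus strand), of the condensin subunit *Ncapg* at chr5:45669825-45669924 (plus strand) and of topoisomerase II alpha (*Top2a*) at chr11:99024190-99024289 (minus strand).
Cdc20: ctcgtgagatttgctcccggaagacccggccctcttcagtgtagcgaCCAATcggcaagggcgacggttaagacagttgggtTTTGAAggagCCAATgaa
Espl1: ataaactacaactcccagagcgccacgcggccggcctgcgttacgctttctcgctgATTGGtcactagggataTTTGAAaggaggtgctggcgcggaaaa
Kif11: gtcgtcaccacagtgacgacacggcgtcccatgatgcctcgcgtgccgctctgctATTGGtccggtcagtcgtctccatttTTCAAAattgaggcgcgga
Ncapg: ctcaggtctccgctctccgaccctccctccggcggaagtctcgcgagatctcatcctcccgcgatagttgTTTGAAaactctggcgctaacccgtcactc
Top2a: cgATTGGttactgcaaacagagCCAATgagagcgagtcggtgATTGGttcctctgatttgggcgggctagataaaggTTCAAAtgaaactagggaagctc

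In these stretches of 100 bases the CHR match began 18 bases before the start in *Cdc20*, 27 in *Espl1*, 19 in *Kif11*, 30 in *Ncapg* and 23 in *Top2a*. All such distances count from the RefSeq start, and the *Espl1* match begins where the GENCODE annotation starts the gene. The 100 bases of *Top2a* held 3 of the 6 CCAAT matches of its window, spaced 20 bases apart from 98 to 58 bases before the start. The 100 bases of *Ncapg* held none, and the 1 match of its window lay 176 bases before the start. In other members the match lay just after the start. The sites of *Kif18b* and *Hmmr*, which had large fold changes, of Aurora kinase A (*Aurka*) and of the centromeric histone *Cenpa* are shown in 26 bases each, at chr11:102925106-102925131 (minus strand), chr11:40733414-40733439 (minus strand), chr2:172370523-172370548 (minus strand) and chr5:30666892-30666917 (plus strand), with the CHR match in capitals.
Kif18b: gaccggctagTTTGAAcgcgccgcgc
Hmmr: ttgaggtaaaTTTGAAttcaggcgag
Aurka: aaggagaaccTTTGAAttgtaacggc
Cenpa: cgggtgatttTTTGAActgctggcga

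Those 4 matches began at bases 4, 9, 33 and 17 counted from the RefSeq start. The GENCODE starts of *Hmmr*, *Aurka* and *Cenpa* differ, and the matches of *Hmmr* and *Aurka* begin before them. As a contrast, the promoter of survivin (*Birc5*), at chr11:117849137-117849236 (plus strand), held neither element in its window of 300 bases, and its 100 bases before the start were as follows.
Birc5: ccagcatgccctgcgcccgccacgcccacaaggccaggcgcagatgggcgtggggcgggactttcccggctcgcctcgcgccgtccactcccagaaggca

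A CHR match was found in 33 of the 48 windows of mitotic genes (68.8%), against 16.1% of the 10242 tested genes with a window. CCAAT was found in 68.8% and 42.9%, and both elements together in 58.3% and 7.9%. Within 50 bases of the start on either side, a range chosen after the positions had been seen, 29 of 48 mitotic genes (60.4%) and 4.22% of tested genes held a CHR match. A match of letters is a description and not a site of binding.

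**Figure D1:**
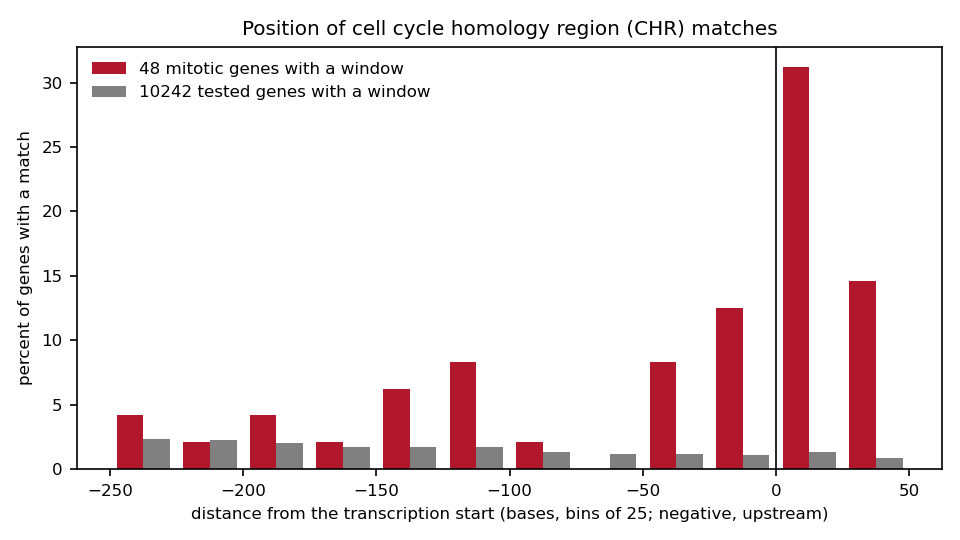
Position of CHR matches in promoter windows. Bars give the percent of genes with a match in each bin of 25 bases (y axis) by distance from the transcription start (x axis), in red for the 48 mitotic genes with a window and in grey for the 10242 tested genes; the tallest red bar, at 31.2% of genes, lies in the 25 bases after the start, where the grey bar is at 1.29%.

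The genotypes were compared to find the transcripts that differ between them. Each library held between 25587097 and 29126232 reads on genes, and levels are given as normalized counts, which are read counts scaled by the TMM method to the mean library size. Lists of values that follow give replicates 1, 2 and 3 of each group in that order. On the first principal component WT replicate 2 was the outlying library, at 106, with the remaining libraries between -28.5 and -6.52. KO replicates 1 and 2 were closer to each other (chi-square of 4.91 per degree of freedom) than any other pair of a group (90.1 to 398), but differed by more than sampling noise. Of 15 endothelial markers, 6 averaged at least 100 normalized counts. They were *Emcn* (12370), *Eng* (3759), *Cdh5* (1967.5), *Flt1* (1127), *Tek* (651) and *Egfl7* (207). *Cldn5*, *Sox17* and *Robo4* were at 0 in every library, and *Pecam1* averaged 4.24. All 10 fibroblast markers and 6 of 10 mural markers averaged at least 100. The cultures are therefore called by their label only. For the marker lists of endothelial, fibroblast, mural, macrophage, melanocyte and epithelial cells, the summed level, which rests mostly on a few abundant genes, overlapped between the genotypes. Single markers did not all overlap. The endothelial adhesion gene *Cdh5* (VE-cadherin) was at 219.8, 232 and 179 normalized counts in KO and at 2508, 5198 and 3468 in WT libraries, and *Cdh5* and *Flt1* were the 2 endothelial markers with every WT library above every KO library, against 9.57% of all genes tested. Each KO library was above each WT library for 1 of 15 endothelial markers (*Vwf*), against 10.3% of all genes tested. *Vwf* had few reads, with raw counts of 15, 25 and 6 in KO and 4, 0 and 1 in WT libraries. The same held for 3 of 10 fibroblast markers (*Col3a1*, *Dcn* and *Postn*) and 5 of 10 mural markers (*Pdgfrb*, *Des*, *Rgs5*, *Notch3* and *Abcc9*), in that KO was above WT throughout. *Dcn* was at 4048, 3832 and 4832 in KO and at 1970, 1862 and 2512 in WT libraries. For *Col3a1* the gap was narrow, with 52918 in the lowest KO and 50951 in the highest WT library. The other fibroblast markers overlapped between the genotypes. Of these, *Fn1* was at 34778, 35746 and 52232 in KO and at 44070, 102496 and 88449.5 in WT libraries. No macrophage, melanocyte or epithelial marker separated the genotypes in either direction. The macrophage sum was between 1412 and 3649 in the KO libraries and up to 3501 in the WT libraries, but 95.9 in WT replicate 2. That library also differed from the others in several markers. *Col1a1* was at 27174 in it and between 207 and 1227 elsewhere. *Acta2* was at 16267 against 29.3 to 1204, *Cspg4* at 4407 against 385 to 782, and *Emcn* at 409 against 9896 to 18385. Its *Postn* and *Notch3* lay within the range of the other libraries. The part of these markers in the mitotic results was not tested.

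The mitotic genes were higher in KO than in WT cultures, by a median log2 fold change of 2.56, against -0.02 for all genes tested. Log2 fold changes were 3.35 for the checkpoint kinase *Ttk*, 3.76 for the kinesin *Kif18b*, 3.34 for topoisomerase II alpha (*Top2a*) and 2.63 for the contractile ring protein anillin (*Anln*), and none of the 53 genes passed the adjusted threshold of the test. Of the 53 genes, 52 had a log2 fold change above 0, against 48.1% of all genes tested, and 49 were above 1, against 4.98%. Securin (*Pttg1*) was the exception, with a log2 fold change of -0.41 (SE 0.20). In 48 of 53 genes each KO library was above each WT library, against 10.3% of all genes tested, and *Bub3*, *Cenpt*, *Kif18a*, *Smc4* and *Pttg1* were the 5 with overlap.

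In the quasi-likelihood test of edgeR, with Benjamini-Hochberg adjustment over every gene tested, 0 of the 53 genes reached an adjusted p under 0.05, as did 0.0668% of all genes tested (9 genes). The lowest adjusted p was 0.0503, shared by *Bub1b*, *Nusap1*, *Smc2* and *Diap3*, and 26 members were under 0.1, against 125 of the 13479 genes tested. At an unadjusted p under 0.05, 49 of 53 were higher and 0 were lower, against 6.14% of all genes tested that were higher. By the Wald test of DESeq2, 46 members had an adjusted p under 0.05, all of them higher, against 2.51% of all genes, and by limma-voom 0 did. Without WT replicate 2, edgeR gave 34 members, all of them higher, against 1.62% of all genes, whereas leaving out each of the other libraries gave 0. The median log2 fold change was 2.77 without that library. For 8 genes the fold itself rose by over 1.5 times without it, to log2 fold changes of 3.88 for *Bub1*, 3.83 for *Nuf2*, 4.07 for *Kif4*, 4.16 for *Kif14*, 4.38 for *Kif18b*, 2.80 for *Kifc1*, 2.83 for *Ect2* and 4.01 for *Cit*, and leaving out any other library moved no member that far.

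**Figure D2:**
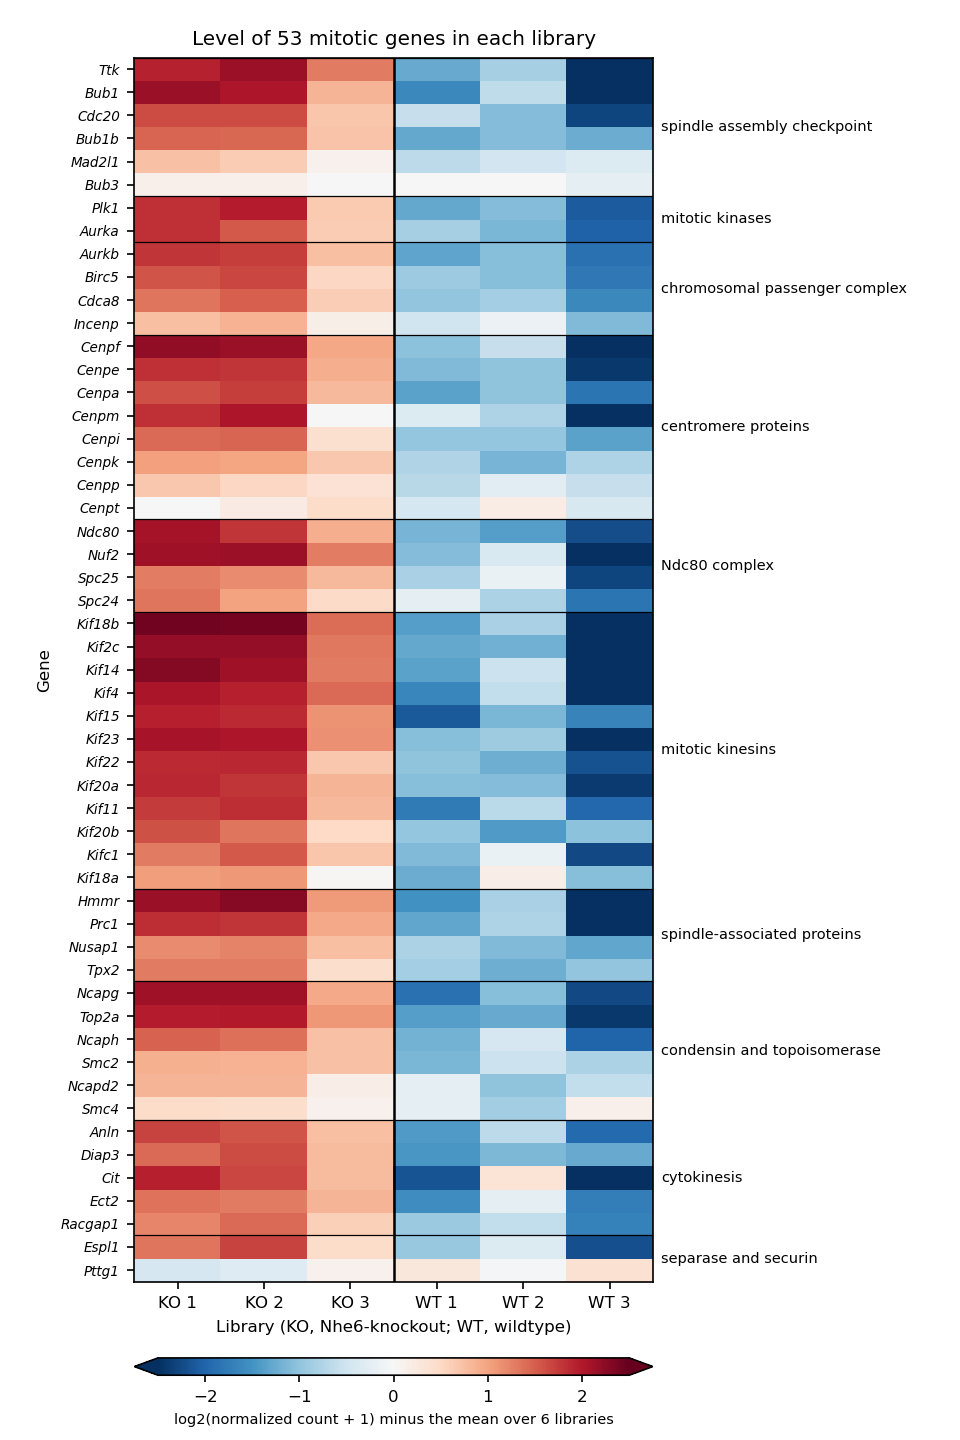
Level of each of the 53 mitotic genes (rows, by role) in the 6 libraries (columns; KO, *Nhe6*-knockout; WT, wildtype). Colors give log2(normalized count + 1) minus the mean of the gene over the 6 libraries; rows are red in the KO libraries and blue in the WT libraries except for *Pttg1*, the pale rows of *Bub3*, *Cenpt* and *Smc4* and WT 2 in *Kif18a* and *Cit*, and KO 3 is paler than KO 1 and KO 2 in most rows.

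The libraries of a group were not alike. The 53 genes made up 0.142%, 0.142% and 0.0891% of gene counts in KO replicates 1, 2 and 3 and 0.0373%, 0.0379% and 0.032% in WT replicates 1, 2 and 3. KO replicate 3 was the lowest of the KO libraries in 51 of 53 genes, at a median ratio of 0.546 to the mean of replicates 1 and 2 (from 0.252 for *Cenpm* to 1.39 for *Pttg1*). WT replicate 3 was the lowest of the WT libraries in 39 genes, and WT replicate 2 was the highest in 37. On the log2 scale, the median member lay at 1.61, 1.64 and 0.73 above its own mean over the 6 libraries in the KO cultures and at -1.09, -0.81 and -1.97 in the WT cultures, while the median of all tested genes stayed between -0.0034 and 0.0153.

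The spindle assembly checkpoint genes had a median log2 fold change of 2.49, and 5 of 6 did not overlap between the genotypes. In those 5 each KO library was above each WT library, against 10.3% of all genes tested. The same share is the background for the counts of the later roles. The kinase *Ttk* (also called Mps1; chr9:83834689-83872389, plus strand, all such positions as annotated by GENCODE M21 on GRCm38), which starts the checkpoint signal at unattached kinetochores, was at 192, 226 and 125 normalized counts in KO and at 20.5, 27.8 and 4.28 in WT libraries, a log2 fold change of 3.35 (SE 0.65, adjusted p = 0.114). WT replicate 3 was lowest for *Ttk*, and every KO library was far above every WT library. *Bub1*, a kinase that gathers checkpoint proteins at the kinetochore, had a log2 fold change of 3.22, and *Cdc20*, the target that the checkpoint holds back, of 2.55. *Bub1b*, which encodes BubR1 of the mitotic checkpoint complex, was at 722, 707 and 429 in KO and at 108, 124 and 110.2 in WT libraries, with a log2 fold change of 2.44 (SE 0.25, adjusted p = 0.0503). Its 3 WT libraries lay within a narrow band, and its p was the lowest of all 53 genes, at rank 11 of the genes tested. *Mad2l1*, which encodes the *Cdc20* inhibitor Mad2, was 2-fold higher in KO (log2 fold change 1.00, SE 0.21). *Bub3*, the adaptor that docks *Bub1* and BubR1 on the kinetochore, had the most normalized counts of the group (chr7:131560222-131571895, plus strand). It was at 2279, 2279.7 and 2059.9 in KO and at 2075, 2084 and 1788 in WT libraries. The groups overlapped for *Bub3*, and its log2 fold change of 0.15 (SE 0.12, adjusted p = 0.669) was within the spread between libraries.

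**Figure D3:**
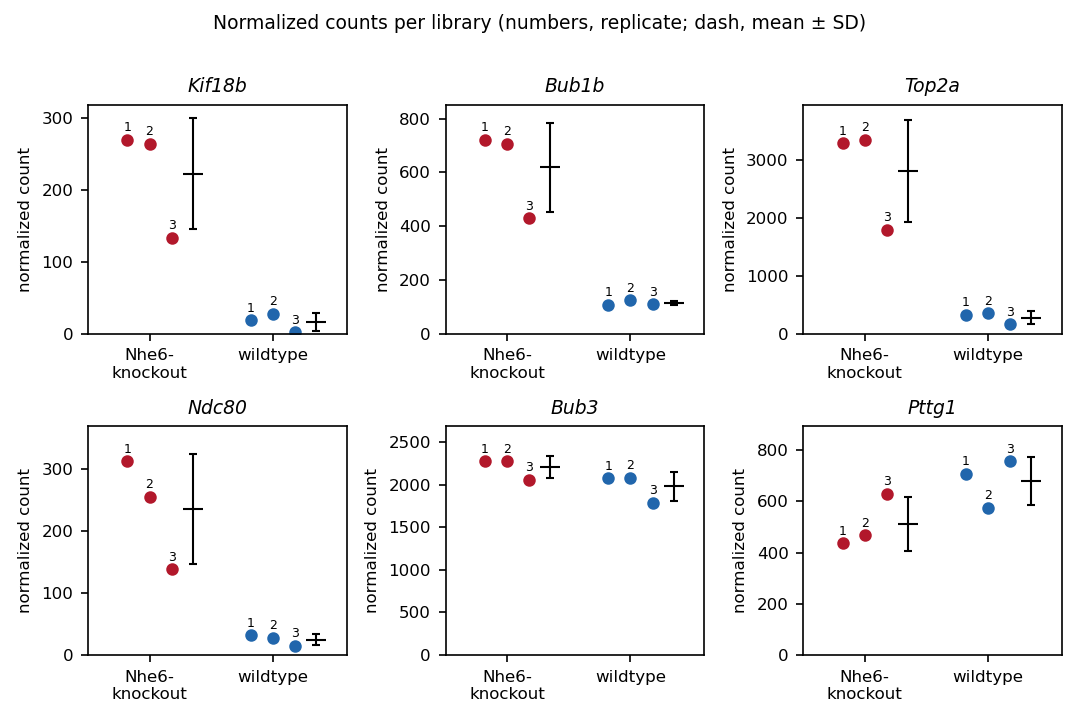
Normalized counts of 6 mitotic genes in each library (points, labelled by replicate) with the mean ± SD over 3 libraries (dashes and bars). *Kif18b*, *Bub1b*, *Top2a* and *Ndc80* lie in every KO library above every WT library, the KO and WT points of *Bub3* overlap, and *Pttg1* is the gene with the higher WT mean.

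The mitotic kinases *Plk1* and *Aurka*, which drive entry into mitosis and the maturation and separation of spindle poles, had log2 fold changes of 3.04 (SE 0.46) and 2.68 (SE 0.45). *Plk1* (chr7:122159439-122169873, plus strand) was at 447, 494 and 198 normalized counts in KO and at 50.8, 58.8 and 28.9 in WT libraries. For *Aurka* the values were 443, 359 and 193 in KO and 69.4, 55.7 and 29.9 in WT libraries. Both had KO replicate 3 and WT replicate 3 as the lowest library of their group, and neither overlapped between the genotypes.

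The chromosomal passenger complex corrects faulty attachments and later directs cytokinesis, and its 4 genes had a median log2 fold change of 2.45 without overlap between genotypes. Its kinase Aurora B (*Aurkb*, chr11:69045647-69051664, plus strand) was at 335, 320.5 and 164 normalized counts in KO and at 38.1, 45.4 and 25.7 in WT libraries, a log2 fold change of 2.90 (SE 0.39, adjusted p = 0.08). Survivin (*Birc5*) and borealin (*Cdca8*), which bring the kinase to the inner centromere, were 5.92-fold and 5.06-fold higher by the ratio of means. The scaffold *Incenp* was at 584, 637 and 386 in KO and at 246, 313 and 160.4 in WT libraries, a log2 fold change of 1.16 (SE 0.31, adjusted p = 0.222). *Incenp* was thus the member with the smallest fold of the complex, and WT replicate 2, its highest WT library, came closest to the lowest KO library. Per kb of exon, the scaffold had the highest level of the subunits in both genotypes. The highest subunit was 3.3 times the lowest in KO and 7.47 times in WT cultures. The exon length used here and below joins all exons that GENCODE annotates for a gene. It can exceed the length of the transcript in the cells, so every order and ratio per kb depends on the annotation.

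Of the 8 centromere genes, 7 did not overlap between the genotypes, and the median log2 fold change was 2.43. The largest fold was that of a protein of the outer kinetochore that is made mainly around mitosis. This protein, *Cenpf* (chr1:189640606-189688086, minus strand), was at 1325, 1265 and 555 normalized counts in KO and at 139, 189.8 and 20.3 in WT libraries, a log2 fold change of 3.17 (SE 0.78, adjusted p = 0.184), with a wide spread among the WT libraries. The motor *Cenpe*, which carries chromosomes to the spindle equator, had a log2 fold change of 2.95 (SE 0.45), and the centromeric histone *Cenpa* one of 2.81 (SE 0.37). The remaining centromere genes spread from 0.43 to 2.59 on the log2 scale, with *Cenpp* at 1.03, *Cenpk* at 1.81 and *Cenpi* at 2.27. *Cenpm* had the fewest normalized counts of the 53 genes, with 2 raw counts in WT replicate 3. *Cenpt*, which links centromeric chromatin to the Ndc80 complex, was at 451, 521 and 617 in KO and at 330.4, 509 and 340.1 in WT libraries. For *Cenpt* the genotypes overlapped through WT replicate 2, KO replicate 3 was the highest and not the lowest of its group, and the log2 fold change was 0.43 (SE 0.23, adjusted p = 0.531). The exons of *Cenpp* overlap those of *Ippk* on the other strand by 315 bases.

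The Ndc80 complex grips the microtubule, and its 4 genes had a median log2 fold change of 2.54 with no overlap between genotypes. *Ndc80* (chr17:71496100-71526857, minus strand), whose protein binds the microtubule, was at 313, 255 and 138 normalized counts in KO and at 32.3, 27.8 and 15.0 in WT libraries, a log2 fold change of 3.23 (SE 0.46, adjusted p = 0.08). Its partner *Nuf2* had a log2 fold change of 3.13 (SE 0.82). The other end of the complex, which docks on the kinetochore, showed smaller folds. *Spc25* was at 574, 531 and 413 in KO and at 134, 210.4 and 47.1 in WT libraries, a log2 fold change of 1.95 (SE 0.51). *Spc24* was at 152, 121 and 83.3 in KO and at 50.8, 34.0 and 16.0 in WT libraries, a log2 fold change of 1.81 (SE 0.49, adjusted p = 0.225). The difference in fold between the ends of the complex was not tested. Per kb of exon, *Spc25* was the most abundant subunit and *Ndc80* the least in both genotypes, with a ratio of 4.37 in KO and 10.6 in WT cultures. A stretch of 303 bases of *Ndc80* is 95.05% identical to the gene *2700099C18Rik*, so the split of reads between both is uncertain.

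**Figure D4:**
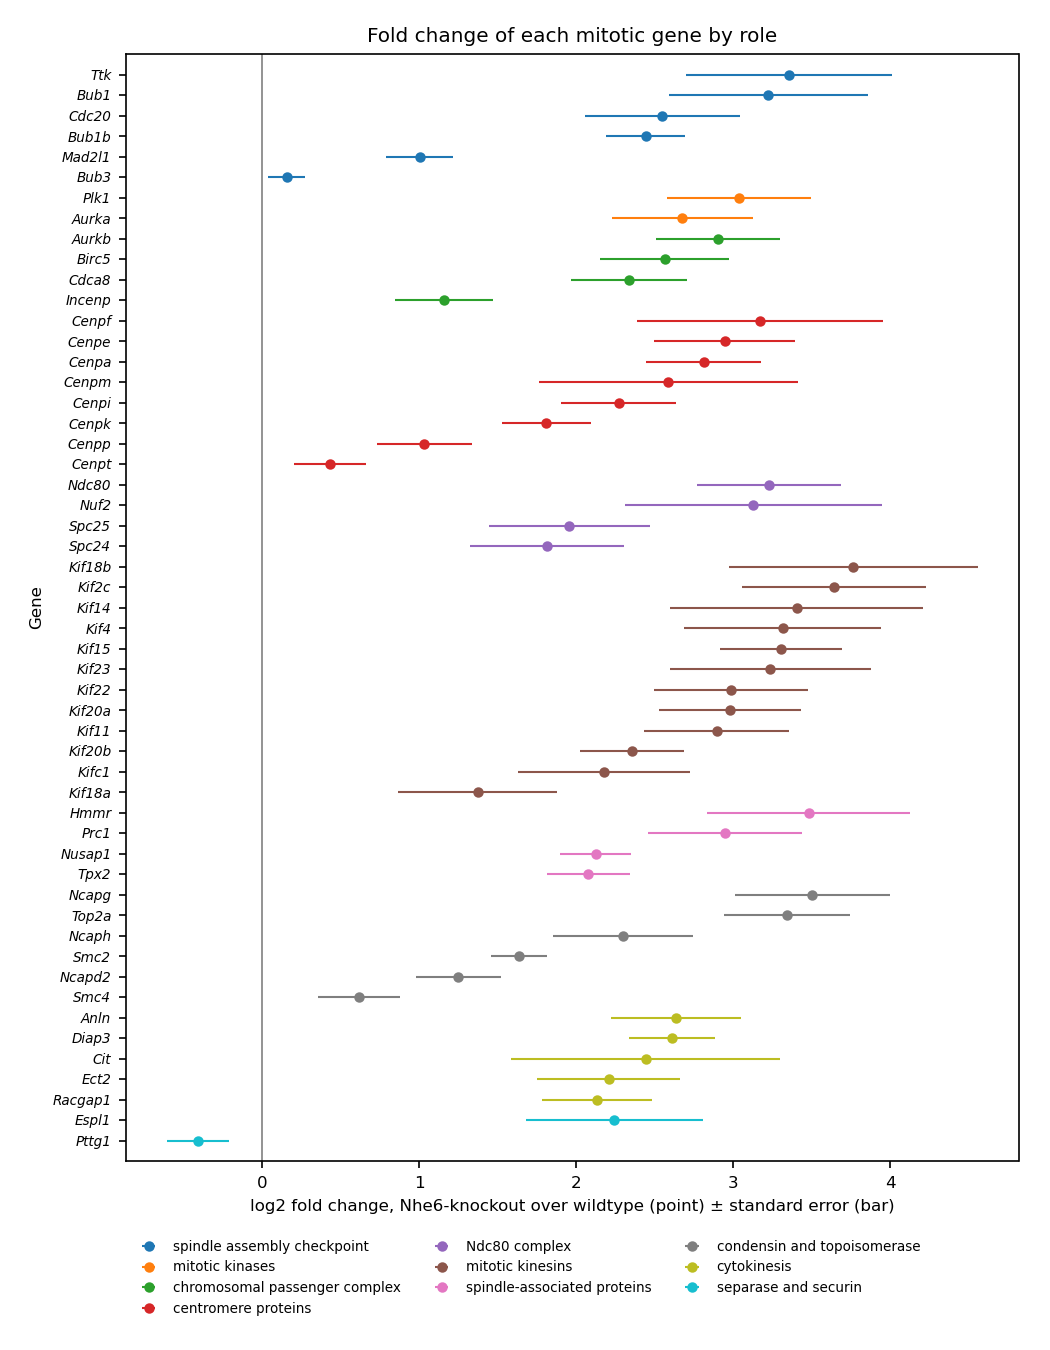
Log2 fold change (x axis, points) ± standard error (bars) of each of the 53 mitotic genes (y axis), KO over WT, colored by role. Points lie between -0.41 for *Pttg1* and 3.76 for *Kif18b*; *Bub3*, *Cenpt* and *Smc4* are the 3 genes with a positive value below 1.

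The 12 kinesins had the highest median of the groups, at a log2 fold change of 3.11, and 11 of 12 did not overlap between genotypes. *Kif18b* (chr11:102905529-102925124, minus strand), a motor that shortens astral microtubules, had the largest fold change of the 53 genes, at 269.6, 264 and 133 normalized counts in KO and at 18.6, 27.8 and 2.14 in WT libraries (log2 fold change 3.76, SE 0.79, adjusted p = 0.131). With 2 raw counts in WT replicate 3, the size of that fold rests on few reads. *Kif2c*, which depolymerizes microtubules at centromeres, followed at 3.64 (SE 0.59). *Kif20a*, a motor of the central spindle needed for cytokinesis, had the highest normalized counts of the kinesins, at 1952, 1812 and 950.0 in KO and at 251, 247 and 99.5 in WT libraries (log2 fold change 2.98, SE 0.45, adjusted p = 0.0941). Its exons overlap those of *Cdc23* on the other strand by 1271 bases, and those of the chromosome-bound motor *Kif4* (log2 fold change 3.31) overlap *Pdzd11* by 832 bases.

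The motors that push spindle poles apart, *Kif11* and *Kif15*, had log2 fold changes of 2.89 (SE 0.46) and 3.30 (SE 0.39). The centralspindlin motor *Kif23* was at 3.24 (SE 0.64), the midbody motor *Kif14* at 3.40 (SE 0.80), the chromosome arm motor *Kif22* at 2.98 (SE 0.49) and *Kif20b* at 2.35 (SE 0.33). *Kifc1*, a motor that draws spindle poles together, was at 2.18 (SE 0.55), and 2312 of its bases are 96.8% identical to *Kifc5b*, whose own log2 fold change was 1.84 (SE 0.54), so the split of reads between both is uncertain. *Kif18a*, which dampens chromosome movement at the spindle equator, had the smallest fold of the kinesins. It was at 192, 198 and 94.6 in KO and at 39.1, 104 and 43.8 in WT libraries (log2 fold change 1.37, SE 0.51, adjusted p = 0.367). WT replicate 2 lay above KO replicate 3 for *Kif18a*, and the other WT libraries lay below all KO libraries.

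The 4 spindle-associated proteins had a median log2 fold change of 2.53, and no member overlapped between genotypes. *Hmmr* (chr11:40701395-40733422, minus strand), which encodes a protein of spindle poles, had the largest fold, at 1078, 1158 and 502 normalized counts in KO and at 83.1, 136 and 25.7 in WT libraries (log2 fold change 3.48, SE 0.64, adjusted p = 0.109). *Tpx2*, the activator of Aurora A that nucleates microtubules near chromosomes, had the smallest, at 1631, 1635 and 904 in KO and at 369, 286 and 333 in WT libraries (log2 fold change 2.08, SE 0.27, adjusted p = 0.0757). The WT libraries of *Tpx2* were close together, so its smaller fold had the lower p. The microtubule crosslinker *Nusap1* (log2 fold change 2.12, SE 0.23) was at the lowest adjusted p of the 53 genes, and *Prc1*, which bundles the antiparallel microtubules of the central spindle, was at 2.95 (SE 0.49). The exons of *Prc1* overlap those of *Rccd1* on the other strand by 911 bases.

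The condensin and topoisomerase genes had log2 fold changes from 0.62 to 3.50 and a median of 1.97. *Ncapg* (chr5:45669919-45700546, plus strand), a subunit found only in condensin I, was at 352, 352 and 157 normalized counts in KO and at 21.5, 38.2 and 16.0 in WT libraries, a log2 fold change of 3.50 (SE 0.49, adjusted p = 0.08). Its exons overlap those of *Lcorl* on the other strand by 944 bases. *Top2a*, which untangles sister chromatids, was 10.1-fold higher by the ratio of means, at 2815 ± 879.9 (SD, n = 3) in KO and 278 ± 105 (SD, n = 3) in WT cultures. *Ncaph* had a log2 fold change of 2.30 (SE 0.45) and *Ncapd2* one of 1.25 (SE 0.27). The ATPases *Smc2* and *Smc4*, which form the core of both condensin I and condensin II, had smaller folds than *Ncapg*, *Top2a* and *Ncaph*. The fold of *Ncapd2* lay between those of the ATPases. *Smc2* was 3.11-fold higher by the ratio of means, with a log2 fold change of 1.64 and an adjusted p of 0.0503. *Smc4* was at 3088, 3041 and 2431 in KO and at 1909, 1226 and 2446 in WT libraries (log2 fold change 0.62, SE 0.26, adjusted p = 0.429). For *Smc4* the highest WT library, replicate 3, lay just above the lowest KO library, and WT replicate 2 lay below the other WT libraries. Per kb of exon *Smc4* was the most abundant of the 53 genes in both genotypes, and the ratio of *Smc4* to *Ncapg* was 13.5 in KO and 99.98 in WT cultures.

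The 5 cytokinesis genes had log2 fold changes within a narrow range, from 2.13 to 2.63, and none overlapped between genotypes. Anillin (*Anln*, chr9:22332012-22389188, minus strand), which ties the contractile ring to the membrane, was at 1572, 1460.3 and 825 normalized counts in KO and at 183, 313 and 126 in WT libraries (log2 fold change 2.63, SE 0.41, adjusted p = 0.0952). *Racgap1*, which pairs with *Kif23* in centralspindlin, was at 780.3, 894 and 506 in KO and at 175, 219 and 103 in WT libraries (log2 fold change 2.13, SE 0.35, adjusted p = 0.0952). For both genes WT replicate 3 was lowest and WT replicate 2 highest. *Ect2*, the exchange factor that activates RhoA at the equator, had a log2 fold change of 2.21 (SE 0.45), and the formin *Diap3* (*Diaph3* in current annotation), which nucleates the actin of the ring, one of 2.61 (SE 0.27). Citron kinase (*Cit*), a midbody protein, had a log2 fold change of 2.44 and the largest standard error of the 53 genes (0.86), since WT replicate 2 was at 71.2 normalized counts and the other WT libraries at 11.7 and 8.56. Without WT replicate 2 its log2 fold change was 4.01 and its adjusted p 0.0241, against 2.44 and 0.344 with it.

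Separase and its inhibitor had log2 fold changes of opposite sign. Separase (*Espl1*, chr15:102296266-102324357, plus strand), the protease that opens cohesin at anaphase, was at 209, 268 and 113 normalized counts in KO and at 42.0, 65.0 and 17.1 in WT libraries (log2 fold change 2.24, SE 0.57, adjusted p = 0.193). Securin (*Pttg1*, chr11:43420250-43426251, minus strand), which binds and blocks separase until the checkpoint is met, was at 436, 468 and 629 in KO and at 708, 575 and 757 in WT libraries (log2 fold change -0.41, SE 0.20, adjusted p = 0.483). KO replicates 1 and 2 lay below all WT libraries for *Pttg1*, but KO replicate 3 lay above WT replicate 2, and the difference was within the spread between libraries. Per kb of exon *Pttg1* ranked 2 of the 53 genes in WT cultures, at 339.9 normalized counts per kb, and 8 in KO cultures, at 255.6, whereas *Espl1* ranked 46 in WT and 50 in KO. The RefSeq start of *Pttg1* lies 270 bases inside the gene as GENCODE annotates it, and its window held neither promoter element.

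The 4 genes with the lowest log2 fold changes, *Smc4*, *Pttg1*, *Bub3* and *Cenpt*, ranked 1 to 4 by level per kb of exon in WT cultures. Other genes did not follow that order: *Kif18a*, at a log2 fold change of 1.37, ranked 43 and *Cenpk*, at 1.81, ranked 36, whereas *Kif20a*, at 2.98, ranked 10. Genes at the low end of the WT levels, *Kif14*, *Cit*, *Kif15*, *Ttk* and *Ncapg*, ranked 53, 52, 51, 50 and 49 in WT cultures and had log2 fold changes of 3.40, 2.44, 3.30, 3.35 and 3.50. A level in WT cultures is part of the fold itself, so this order is a description only. By promoter, the 33 mitotic genes with a CHR match had a median log2 fold change of 2.89, and the 15 with a window but no match had one of 2.12. Both sets ranged widely: *Bub3* held CHR and CCAAT matches at a log2 fold change of 0.15, and *Nuf2* held neither at 3.13.

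The other genes of mitosis, 109 in 6 lists that hold none of the 53, had a median log2 fold change of 0.28. That median depends on which genes the lists hold. Of the 109 genes, 32 had a log2 fold change above 2 and 31 were below 0, against 219 and 6998 of the 13479 genes tested. At an unadjusted p under 0.05, 46 of the 109 were higher and 1 was lower, against 6.14% and 5.71% of all genes tested. By edgeR 0 had an adjusted p under 0.05, where 0.0668% of all genes did. By DESeq2 39 did, all of them higher, against 2.51% of all genes, and 24 did by edgeR without WT replicate 2, all of them higher, against 1.62%. The medians of the lists ran from -0.14 to 1.40, and the share above 0 is to be read against 48.1% of all genes tested. Other kinetochore and checkpoint genes had a median of 1.40 with 27 of 28 above 0, and genes of mitotic entry and exit one of 1.39 with 15 of 20 above 0. Other spindle and centrosome genes were at 0.66 (19 of 24 above 0), subunits and partners of the anaphase-promoting complex at 0.07 (10 of 15), cohesin and other condensin genes at -0.03 (5 of 13) and other cytokinesis genes at -0.14 (2 of 9).

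Among the genes of these lists with at least 100 normalized counts on average, the 5 with the largest log2 fold changes were *Mki67*, the source of the proliferation marker Ki-67 (3.45), *Ube2c*, the ubiquitin-conjugating enzyme of the anaphase-promoting complex (3.41), the spindle pole protein *Aspm* (3.33), the kinetochore scaffold *Casc5* (*Knl1*, 3.11) and the kinase *Melk* (3.03). *Mki67* was at 2642, 2524 and 1137 normalized counts in KO and at 195, 310.5 and 71.7 in WT libraries. *Aspm* was at 808, 891 and 474 in KO and at 82.1, 113 and 20.3 in WT libraries. These values follow the same order of libraries as most of the 53 genes, with KO replicate 3 lowest in KO and WT replicate 3 lowest in WT. Without WT replicate 2 the log2 fold change of *Casc5* was 4.28. *Ube2c* was at 426, 434 and 192 and 54.7, 33.0 and 10.7, *Casc5* at 386, 380.0 and 168 and 14.7, 76.3 and 17.1, and *Melk* at 310.0, 291 and 150.4 and 37.1, 40.2 and 13.9 in KO and WT libraries.

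At the other end lay the endosomal motor *Kif13a* (-0.37), the augmin subunit *Haus1* (-0.36), the ESCRT ATPase *Vps4a* (-0.35), conventional kinesin *Kif5b* (-0.33) and the cohesin subunit *Stag2* (-0.28). *Vps4a*, which also cuts the last bridge between daughter cells, was at 1999, 1908 and 1880.1 in KO and at 2587, 2469 and 2315 in WT libraries. It was the gene lower in KO at an unadjusted p under 0.05 (0.0136), without overlap, and its adjusted p was 0.266. *Stag2* was at 6097, 5892 and 6868 and 6048, 8260.0 and 8603, *Kif5b* at 6386, 6386 and 7223 and 6319.6, 10283 and 8476, *Haus1* at 303, 350.2 and 384 and 361, 522 and 449, and *Kif13a* at 1754, 1719.5 and 2051 and 1855, 3166 and 2097 in KO and WT libraries, with overlap for all 4 genes.

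**Figure D5:**
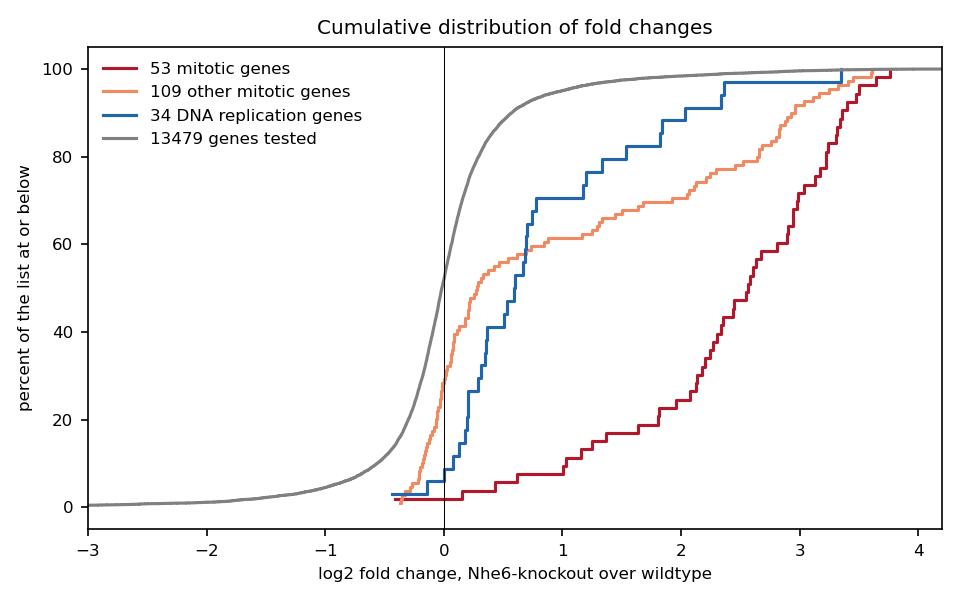
Cumulative distribution of log2 fold changes, KO over WT (x axis), as the percent of each list at or below a value (y axis), for the 53 mitotic genes, the 109 other mitotic genes, the 34 DNA replication genes and the 13479 genes tested. The medians are 2.56, 0.28, 0.60 and -0.02 in that order.

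Genes of DNA replication, used before mitosis in S phase, had a median log2 fold change of 0.60 over 34 genes, of which 32 were above 0, against 48.1% of all genes tested. At an unadjusted p under 0.05, 16 were higher, against 6.14%. An adjusted p under 0.05 was reached by 0 with edgeR, against 0.0668% of all genes, and by 9 with DESeq2, all of them higher, against 2.51%. Thymidine kinase (*Tk1*) had the largest, at 213, 196 and 74.8 normalized counts in KO and at 8.80, 34.0 and 4.28 in WT libraries (log2 fold change 3.35, SE 0.83, and 4.58 without WT replicate 2). Promoter windows of this list held a CHR match in 22.2% of 27 genes, against 43.8% of 89 other mitotic genes and the 68.8% given above. The medians of the 3 lists and the shares of their promoters were not compared by a test.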

How the data were processed

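Poly(A)-enriched stranded libraries of 3 *Nhe6*-knockout and 3 wildtype cultures were sequenced with a kit of 75 cycles. The deposited table holds the raw count of reads per gene symbol and library, without normalization, made by the authors on mm10. The processing notes of the submitters list bcl2fastq 2.20.0.422, STAR 2.7.7a, HTSeq 0.13.5 and DESeq2 1.26.0, and the strand setting of the counting is not given in the sources used here. The 5 summary rows of reads outside genes held 22.2% of all reads and were left out. Columns were assigned to cultures by the genotype and number in their names.

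Genes were filtered with filterByExpr (minimum count 10), normalized by TMM and compared between genotypes in R 4.3.3 with edgeR 4.0.16 (quasi-likelihood, two-sided). P-values were adjusted by Benjamini-Hochberg across the 13479 tested genes, with a threshold of 0.05. Normalized counts are TMM counts scaled to the mean library size, and SEs were obtained from the F statistic as the absolute log2 fold change over its root. P-values measure the spread between 3 cultures per group, and 3 against 3 cultures cannot give an exact permutation p under 0.1. The 53 genes, their roles and the lists of other genes were chosen with earlier results of these data known. Values in every library are given for the gene with the most counts, the largest and the smallest log2 fold change of each role, for any gene called or below 0, for the 5 largest and 5 smallest log2 fold changes of other mitotic genes with a mean of at least 100, and for the DNA replication gene with the largest log2 fold change. Values of some genes are not reported here. *Bub1b* and *Top2a* were added after their values were seen. Near-identical copies were searched with BLAST 2.17.0 (at least 95% identity over 300 bases). Alternatives were DESeq2 1.42.0, limma-voom (limma 3.58.1), other size factors, other filters, a replicate block, leaving out each library and summing *Nhe6*-knockout replicates 1 and 2. The tests were tried on simulated counts.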

Additional observations from a re-analysis of the deposited data

How the results depend on the processing

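The median log2 fold change of the 53 genes stayed between 2.37 and 2.81 under the 14 alternatives, and no gene changed the sign of its log2 fold change. Calls depended on the processing: the number of genes with an adjusted p under 0.05 was 0 in the main test (0.0668% of all genes tested), 3 with upper-quartile factors (0.0964%), 6 with no filter beyond 1 count (0.118%), 5 of 46 genes tested with at least 10 counts in every library (0.169%), and 46 with DESeq2 (3.99%). Over the fits without 1 library it ranged from 0 to 34, and 34 was reached without wildtype replicate 2 (2.88% of all genes in either direction). With the similar *Nhe6*-knockout replicates 1 and 2 summed into 1 library it was 0 (0.00731%). For other mitotic genes it was 39 with DESeq2 and 0 to 24 over the fits without 1 library. The median log2 fold change of the condensin and topoisomerase genes ranged from 1.81 to 2.28 over the fits without 1 library. The cause of these differences was not tested. Of 735 fold changes of single genes under an alternative, 95 passed the threshold where the main test did not.

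Whether replicate numbers pair the samples is not known. The deviations of same-numbered libraries from their group means correlated at 0.207, -0.189 and 0.111, which cannot settle it with 3 libraries per group. With the replicate number as a block, 1 of the 53 genes (*Top2a*, adjusted p = 0.0456) passed the threshold, as did 0.0148% of all genes tested. Genes with few reads limit the precision: *Cenpm*, *Kif14* and *Kif18b* each had 2 raw counts in wildtype replicate 3, so their fold changes rest on few reads. The exons of several genes overlap a gene on the other strand, and without a stated strand setting their reads cannot be told apart.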
